A study of Mus musculus with 6 samples.

Results

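The blood-brain barrier transporter genes described here are 10 genes whose products carry molecules across brain endothelium: Abcb1a, Abcg2, Abcc4, Slco1a4, Slco1c1, Slc2a1, Slc7a5, Slc38a5, Slc16a1 and Mfsd2a. They were taken by symbol from the 31053 genes of the count matrices, with earlier results of these data known, and all 10 were found. Single-cell RNA sequencing had been performed on 2 kinds of tissue from adult wild-type C57BL6 mice of both sexes. The 4 cortical surface libraries held cells released enzymatically from the top of the dorsal cortex, including the leptomeninges. The 2 bone-associated libraries held cells from the connective tissue on the inner side of the skull, including the dura. Each library pooled several mice, the mice were not perfused, and only viable cells that took up the nuclear dye DRAQ5 and excluded propidium iodide were sorted, so that a library is the replicate and a class of cells is compared over libraries. The protocol in the labels names another brain region and another enzyme than the methods of the study, and the tissue is described here after the methods and the sample titles.

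Endothelial cells of brain capillaries are joined by tight junctions and let few solutes pass between or through them, so that nutrients enter by carriers and many drugs and metabolites are sent back by efflux pumps. Vessels of the dura lack this barrier in part, and fenestrated or permeable endothelium is marked by Plvap, a component of the diaphragms of endothelial openings. Among the pumps, Abcb1a encodes P-glycoprotein, Abcg2 encodes the breast cancer resistance protein, and Abcc4 exports organic anions and cyclic nucleotides. Slco1a4 and Slco1c1 encode organic anion carriers, the latter known for the uptake of thyroxine into brain. Slc2a1 encodes the glucose carrier, Slc7a5 the light chain of the carrier of large neutral amino acids, Slc38a5 a glutamine carrier and Slc16a1 a carrier of lactate and ketone bodies. Mfsd2a encodes the carrier of lysophosphatidylcholine-bound docosahexaenoic acid and is known to restrain transcytosis.

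The genes lie on 7 mouse chromosomes in the GENCODE annotation of GRCm38, the build of the files, and each gene identifier in the files was the same as in that annotation. Abcb1a spans chr5:8660077-8748575 on the plus strand, Abcg2 chr6:58584523-58695676 on the plus strand and Abcc4 chr14:118482692-118706219 on the minus strand. The organic anion carriers Slco1c1 (chr6:141524368-141570177, plus strand) and Slco1a4 (chr6:141805440-141856199, minus strand) lie in the same region of chromosome 6. Slc2a1 (chr4:119108711-119137983, plus strand) and Mfsd2a (chr4:122946850-122961188, minus strand) are both on chromosome 4. Slc7a5 spans chr8:121881150-121907694 on the minus strand, Slc38a5 chrX:8271133-8280179 on the plus strand and Slc16a1 chr3:104638668-104658462 on the plus strand. Abcb1a, Abcc4, Slc2a1, Slc7a5 and Slc16a1 overlap other annotated transcripts, Slc7a5 only on the opposite strand, and Abcb1a has a neighbour of similar sequence in Abcb1b. Reads could have been lost or shared in counting, and the levels of these genes are uncertain to that extent.

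The stretches of 250 bases before the RefSeq start of transcription are shown for 4 genes whose levels separated the endothelial classes or preparations described below (GRCm38.p6, 5′ to 3′ on the strand of the gene). Slc2a1, Slco1a4 and Slco1c1 are 3 of the 4 genes called between the preparations in arterial cells, and Mfsd2a is the gene with the largest difference between capillary and Vwf-high cells. Capitals mark matches to the letters GGGCGG on either strand, the core of a site of SP and KLF factors.
Slco1c1, chr6:141524104-141524353, plus strand: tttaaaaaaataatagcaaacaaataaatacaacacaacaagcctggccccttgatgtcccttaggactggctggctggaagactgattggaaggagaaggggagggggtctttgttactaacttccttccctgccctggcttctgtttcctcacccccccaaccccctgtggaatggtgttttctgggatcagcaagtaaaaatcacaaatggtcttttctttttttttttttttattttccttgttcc
Slco1a4, chr6:141856221-141856470, minus strand: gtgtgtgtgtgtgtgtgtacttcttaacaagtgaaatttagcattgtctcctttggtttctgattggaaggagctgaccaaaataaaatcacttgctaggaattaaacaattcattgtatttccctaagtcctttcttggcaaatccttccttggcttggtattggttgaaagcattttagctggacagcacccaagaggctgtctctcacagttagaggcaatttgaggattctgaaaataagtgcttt
Slc2a1, chr4:119108495-119108744, plus strand: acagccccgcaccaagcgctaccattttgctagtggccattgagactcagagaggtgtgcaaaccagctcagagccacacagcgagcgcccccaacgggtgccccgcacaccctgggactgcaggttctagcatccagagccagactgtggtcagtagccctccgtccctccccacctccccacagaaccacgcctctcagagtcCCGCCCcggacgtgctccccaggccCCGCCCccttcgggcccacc
Mfsd2a, chr4:122961189-122961438, minus strand: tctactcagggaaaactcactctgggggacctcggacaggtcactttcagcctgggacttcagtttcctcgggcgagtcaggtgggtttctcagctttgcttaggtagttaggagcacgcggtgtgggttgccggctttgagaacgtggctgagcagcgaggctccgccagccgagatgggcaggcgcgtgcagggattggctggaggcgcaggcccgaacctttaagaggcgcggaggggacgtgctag
The G+C share of these stretches was 42.8% for Slco1c1, 39.2% for Slco1a4, 66.4% for Slc2a1 and 61.6% for Mfsd2a, beside a median of 52.4% over all 32851 promoter stretches of the reference. RefSeq stretches were found for 9 of the 10 genes, 12 in all, and none was at hand for Slc7a5. Of these 12, 6 held GGGCGG on either strand (those of Abcc4, Slc16a1, Slc2a1 and Slc38a5, and a pair of Abcg2), against 32.7% of all stretches. The letters CTTTGAT, a TCF/LEF core, were in 0 of the 12 and in 3.21% of all, and TGTTTAC, a forkhead core, was in the stretch of Abcb1a and in 3.17% of all. This stretch of Abcb1a, chr5:8566841-8567090, is placed by the RefSeq start and lies far upstream of the GENCODE span of the gene given above. A match is a description of letters in this window, and its absence says nothing about a factor.

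After filtering, 8680 cells were kept (5272 cortical surface, 3408 bone-associated), with 739 to 2452 cells and a median of 5461 to 9525 UMIs (unique molecular identifiers, each a counted RNA molecule) per cell in a library. The deposited matrices held 8408685 to 56169736 UMIs per library. Hemoglobin genes took 84.6% and 71.9% of all UMIs in cortical surface libraries 3 and 4, against at most 0.520% elsewhere, so the comparisons of endothelial classes between preparations are also given without them, and the other comparisons were repeated without each library in turn. Pairs of libraries shared 0 to 9 cell barcodes. Cells were clustered without the 10 genes and without the lists of other barrier genes, and clusters were named from marker genes. The capillary class held 253 cells (20 and 19 in the bone-associated libraries, 30, 96, 30 and 58 in the cortical surface libraries) and was led by Spock2, Car4, Cxcl12 and Hmcn1. The arterial class held 214 cells (39 and 102 bone-associated, then 12, 19, 5 and 37) and was led by Bmx, Sema3g, Hey1 and Gja4. The Plvap-positive class held 362 cells, 351 of them bone-associated and 11 from the cortical surface, with a Plvap level far above that of the other classes in the bone-associated libraries. Capillary markers also led clusters of this class: Rgcc and Kdr in those of 141 and 117 cells, and Cxcl12 and Hmcn1 in the latter. A further 270 cells were high in Vwf and Nr2f2, genes of veins and venous capillaries, and low in Plvap, and form a class named and compared after the data had been seen. All 10 pan-endothelial markers were detected in every library of each of the 4 classes. A value below is a CPM, the UMIs of the gene per 1000000 UMIs of a class in a library with at least 10 cells of that class, which leaves 3 cortical surface libraries (1, 2 and 4) for arterial cells and the bone-associated libraries alone for Plvap-positive cells.

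Transporter levels differed among the endothelial classes. The 10 genes together took 8307 ± 264 CPM (SD, n = 4) of capillary cells at the cortical surface and 9466 ± 2316 CPM (SD, n = 2) in bone-associated capillary cells. Vwf-high cells lay at 7992 ± 518 CPM (n = 4) and 6145 ± 1285 CPM (n = 2). Arterial cells followed with 2705 ± 340 CPM (n = 3) at the cortical surface but 574 ± 79.8 CPM (n = 2) in the bone-associated tissue, and bone-associated Plvap-positive cells held 1129 ± 190 CPM (n = 2). T or NK cells, taken as background, held 64.7 ± 6.57 CPM (n = 4) and 134 ± 51.3 CPM (n = 2). Abcb1a was at 14.8 to 22.8 CPM in T or NK cells and at 0 CPM in microglia. Whether the background level is free RNA or RNA of these cells was not tested. The ranges over libraries of arterial cells from the 2 preparations did not overlap, whereas those of capillary cells did. Capillary and Vwf-high cells overlapped at the cortical surface (8116 to 8684 against 7261 to 8457 CPM) but not in the bone-associated tissue.

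**Figure D1:**
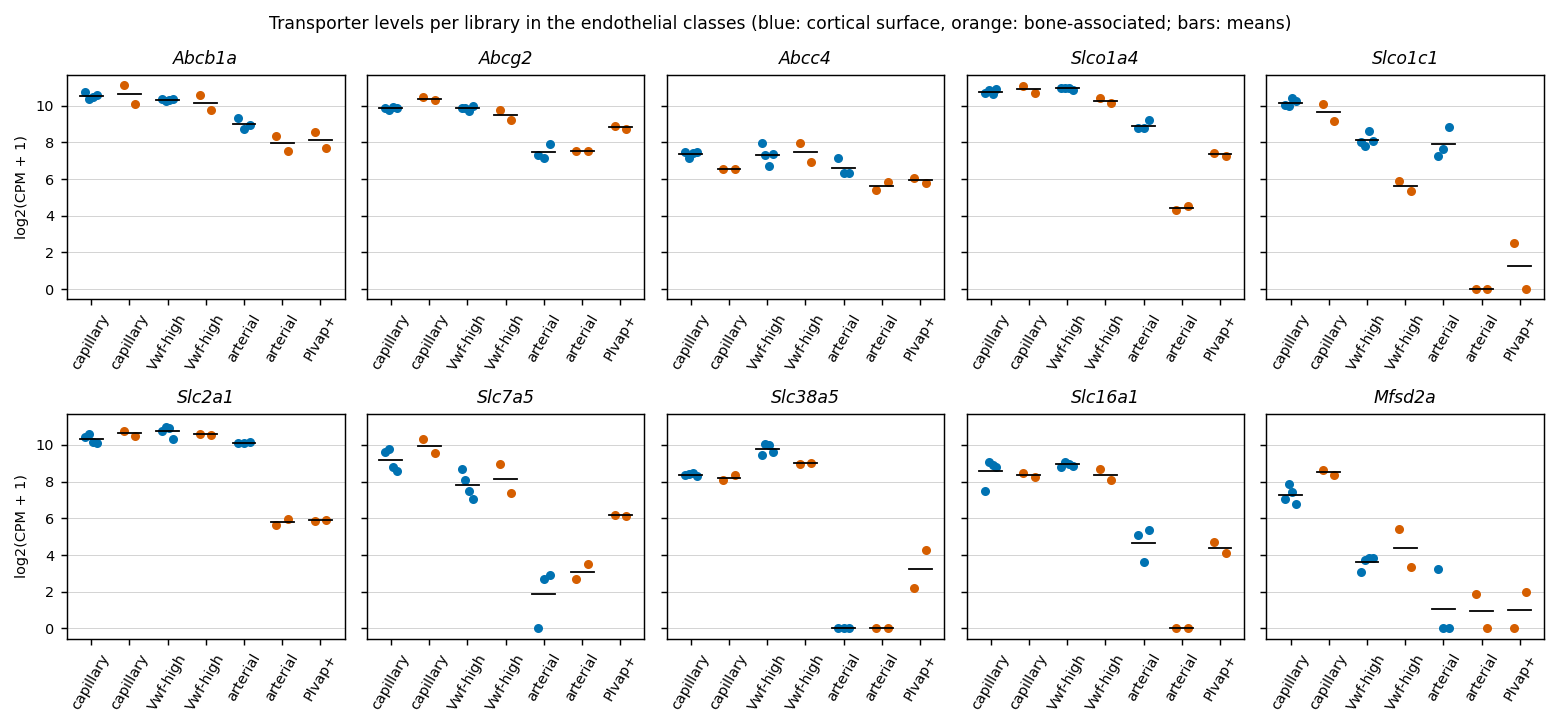
Level of each transporter in each library, as log2(CPM + 1), in capillary, Vwf-high, arterial and Plvap-positive endothelial cells. Blue points are cortical surface libraries, orange points bone-associated libraries, and the bars are means of the plotted values. Slco1a4, Slco1c1 and Slc2a1 of arterial cells stand high in blue and low in orange, while their capillary columns overlap.

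Cell by cell the order was alike once every cell had been thinned to 1500 UMIs, though capillary and Vwf-high cells of the bone-associated tissue had the same median. A capillary cell held UMIs of a median of 6 of the 10 genes at the cortical surface (209 cells) and of 5 in the bone-associated tissue (39 cells), and 73.2% and 69.2% of these cells held 5 or more. The median was 5 in Vwf-high cells of both preparations, 2 in cortical surface arterial cells (69 cells) and 0 in bone-associated arterial cells (138 cells). Among 347 bone-associated Plvap-positive cells the median was 1, and 0.865% of cells held 5 or more. The median was 0 in T or NK cells of both preparations. Slc2a1 UMIs were present in 81.3% of thinned cortical surface capillary cells, 60% of cortical surface arterial cells, 7.97% of bone-associated arterial cells and 7.49% of Plvap-positive cells, beside 5.44% of bone-associated and 2.88% of cortical surface T or NK cells. Without thinning the first 4 shares were 97.7%, 72.1%, 24.1% and 22.8%, beside 18.3% and 10.3% of T or NK cells, whose median depths (6125 and 6004 UMIs) lay within the 5089.5 to 6981 UMIs of the 4 endothelial groups.

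Capillary cells were compared with Plvap-positive cells to ask how barrier capillaries differ from endothelium of permeable vessels. Of the 10 transporters, 9 were higher in capillary cells at an adjusted p under 0.05 and a log2 difference of at least 1.3, where 2.88% of 7741 tested genes were higher and 7.67% were called in either direction. Within the bone-associated libraries alone, which hold both classes side by side, it was again 9 of 10, against 3.83% of 8460 genes. The cells had been grouped by other genes of the same cells. An adjusted p between endothelial classes therefore describes the spread between libraries of cells grouped that way. The test estimates this spread with the help of all tested genes, so it is not that of the named gene alone. The folds below are log2 differences of normalised sums, given with a standard error (SE). This SE is the size of the fold over the square root of the F statistic of the test. For genes with few UMIs it can be smaller than counting error alone. Unless stated, the folds of this comparison come from the fit over both preparations, which also holds arterial cells. That fit assumes equal class differences in both tissues, which did not hold between capillary and arterial cells for Slc2a1, Slco1a4, Slco1c1 and Slc16a1. The folds are therefore not the ratio of the bone-associated CPM printed beside them.

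Among the efflux pumps, Abcb1a lay at 2253 and 1096 CPM in bone-associated capillary cells and at 382 and 203 CPM in Plvap-positive cells of the same libraries. It differed by 2.16 (SE 0.27, adjusted p = 2.09e-05), a call that was lost with classes set by marker list (0.41). Abcg2 was at 1412 and 1251 CPM in these capillary cells and at 480 and 421 CPM in Plvap-positive cells, a difference of 1.39 (SE 0.23, adjusted p = 0.000289) that lies just past the limit of 1.3 and fell short of it without the library block (1.17), with at least 20 cells (1.2985), with thinned cells (1.27) and with classes set by marker list (0.24). For both pumps each capillary library lay above each Plvap-positive library, yet the Plvap-positive cells still held clear levels of them. The remaining pump, Abcc4, was the exception of the 10. It lay at 93.0 and 91.4 CPM in bone-associated capillary cells, 141 to 177 CPM in those of the cortical surface, and 65.8 and 54.1 CPM in Plvap-positive cells, and was not called (adjusted p = 0.246).

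Carriers showed wider gaps. Slco1a4 was at 2187 and 1644 CPM in bone-associated capillary cells and at 172 and 152 CPM in Plvap-positive cells. The log2 difference was 2.76 (SE 0.71, adjusted p = 0.0139), and 3.48 (SE 0.17) within the bone-associated libraries. The call was lost without bone-associated library 1 (2.53), with at least 20 cells (2.44) and with DESeq2 (adjusted p = 0.240). It was also lost with classes set by marker list (0.42, adjusted p = 0.320). Slco1c1, the thyroxine carrier, was at 1089 and 576 CPM against 4.79 and 0 CPM (7.997, SE 1.24, adjusted p = 0.000187). The glucose carrier Slc2a1 was at 1744 and 1455 CPM against 57.4 and 59.5 CPM (3.86, SE 0.84, adjusted p = 0.00406). With classes set by marker list its difference was -0.0979 and was not called. The Slc2a1 level of Plvap-positive cells, 58.5 ± 1.46 CPM (SD, n = 2), was like that of bone-associated monocytes, 57.7 ± 12.97 CPM (SD, n = 2), and Slco1c1 gave 4 UMIs of 2869903 in all Plvap-positive cells.

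The amino acid carriers followed the same direction, with Slc7a5 at 1297 and 752 CPM in bone-associated capillary cells and 73.0 and 67.8 CPM in Plvap-positive cells (3.77, SE 0.28, adjusted p = 6.73e-08). Slc38a5 lay at 270.1 and 323 CPM against 3.59 and 18.7 CPM (4.57, SE 0.39, adjusted p = 1.95e-06). With classes set by marker list its direction was reversed (-0.76). The monocarboxylate carrier Slc16a1 lay at 354 and 309 CPM against 25.1 and 16.2 CPM (3.74, SE 0.50, adjusted p = 3.55e-05), a call that was lost with DESeq2 (adjusted p = 0.236) and with classes set by marker list (0.03). No library of one class reached into the range of the other for these 3 genes. Mfsd2a, the lipid carrier, had 138 UMIs in bone-associated capillary cells and 6 in the larger class of Plvap-positive cells, which is 403 and 330.3 CPM against 0 and 2.95 CPM (7.18, SE 0.48, adjusted p = 1.91e-08). The 11 Plvap-positive cells of the cortical surface were too few to test. They held 17 UMIs of Abcg2, 13 of Abcb1a, 6 of Abcc4, 3 of Slc16a1, 1 each of Slc2a1 and Slco1a4 and 0 of the other 4 genes. Immediate-early and heat shock genes, which respond to dissociation, summed to 14383 and 16412 CPM in Plvap-positive cells and to 5847 and 15105 CPM in bone-associated and 1509 to 10912 CPM in cortical surface capillary cells, and their part in the result was not tested.

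**Figure D2:**
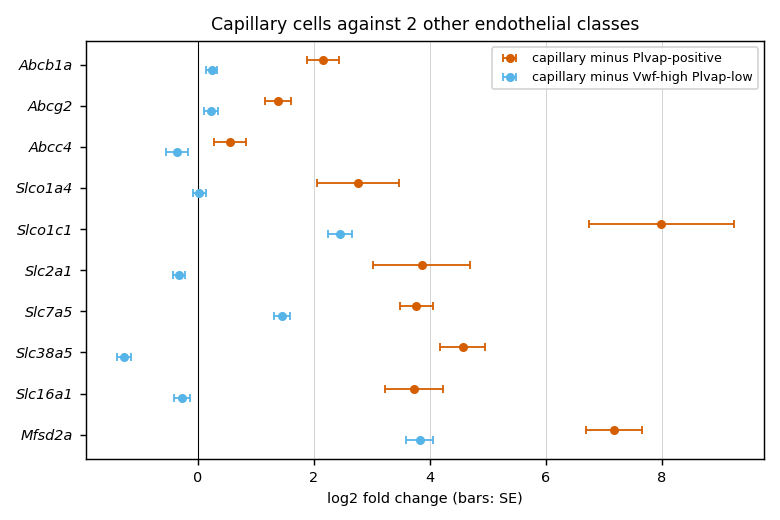
Log2 difference of each transporter, capillary minus Plvap-positive cells (orange) and capillary minus Vwf-high Plvap-low cells (blue), with bars of 1 SE. The orange points are all above 0 and spread from 0.55 for Abcc4 to 7.997 for Slco1c1, and the blue points lie between -1.27 for Slc38a5 and 3.83 for Mfsd2a.

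Capillary and arterial cells were compared to ask which transporters set the exchange vessels apart from the feeding vessels. With both preparations in the same fit, 8 of the 10 genes were higher in capillary cells, against 4.03% of 7662 tested genes (9.67% called in either direction). That fit assumes an equal difference in both tissues, which did not hold for several genes, so the preparations are given apart as well. At the cortical surface 8 of 10 were higher (4.47% of all tested genes), and in the bone-associated libraries 9 of 10 were higher (4.18%).

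Slc38a5 and Mfsd2a were at or near 0 in arterial cells. Arterial cells of both preparations held 0 UMIs of Slc38a5 in every library, where the floor of 3 counts is 6.64 CPM at the cortical surface and 2.63 CPM in the bone-associated cells. Capillary cells were at 310.3 to 354 CPM and at 270.1 and 323 CPM, and the 95% counting interval of their ratio to arterial cells starts at 40.6 and at 88.4. Mfsd2a was at 109.8 to 231 CPM in cortical surface capillary cells and had a single UMI in the arterial cells of each preparation. The ratio of capillary to arterial cells was 85.5 (95% counting interval 15.2 to 3389) at the cortical surface and 428 (75.5 to 17022) in bone-associated cells. Slc7a5 was at 377 to 869 CPM in cortical surface capillary cells and at 0, 5.57 and 6.58 CPM in the arterial cells. It differed by 6.76 (SE 0.29, adjusted p = 2.05e-11), with like values within the cortical surface (7.04) and the bone-associated libraries (6.65).

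The pumps Abcb1a and Abcg2 separated the classes by less. Abcb1a lay at 1304 to 1713 CPM in cortical surface capillary cells and at 418 to 640 CPM in arterial cells, with a log2 difference of 1.49 (SE 0.19, adjusted p = 2.21e-13) there and of 2.56 (SE 0.17, adjusted p = 2.75e-12) in the bone-associated libraries. Abcg2 lay at 872 to 982 CPM against 139 to 244 CPM, and differed by 2.28 (SE 0.22) and 2.74 (SE 0.17). Abcc4, at 141 to 177 CPM against 78.0 to 141 CPM at the cortical surface, had an adjusted p of 0.0253 in the joint fit but a log2 difference of 0.71 (SE 0.21), below the limit of 1.3. For Abcc4 the highest arterial library nearly met the lowest capillary library, and for the other pumps the ranges were apart.

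The preparations parted for the remaining 4 genes. Slc2a1 differed between capillary and arterial cells by 0.16 (SE 0.18, adjusted p = 0.671) at the cortical surface and by 4.67 (SE 0.21, adjusted p = 7.77e-16) in the bone-associated libraries. Slco1a4 differed by 1.82 (SE 0.19, adjusted p = 3.16e-19) and by 6.34 (SE 0.23, adjusted p = 9.52e-18). For Slco1c1 the cortical surface difference was 2.00 (SE 0.21, adjusted p = 4.14e-19), and bone-associated arterial cells held 0 of its UMIs, so that capillary cells were at least 339-fold higher. Slc16a1 differed by 3.81 (SE 0.34, adjusted p = 8.66e-26) at the cortical surface. It again had 0 UMIs in bone-associated arterial cells, with a counting interval of the ratio that starts at 103. The test of the difference between these contrasts is given with the arterial cells. Of 10 immediate-early and heat shock genes, 5 were lower in capillary than in arterial cells, led by Atf3 (-2.95), Egr1 (-2.93) and Fos (-2.10). They summed to 13956 and 16846 CPM in bone-associated and 7209 to 24616 CPM in cortical surface arterial cells, and their part in the result was not tested.

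Arterial cells of the cortical surface held several transporters at higher levels than those of the bone-associated tissue, where Slco1c1 and Slc16a1 gave no UMI. Of the 7 members that could be tested between the preparations, 4 were higher at the cortical surface and none was lower, where 2.37% of 7633 tested genes were higher and 4.51% were called in either direction. Slc2a1 lay at 1106, 1098 and 1152 CPM in cortical surface libraries 1, 2 and 4 and at 49.1 and 61.9 CPM in the bone-associated libraries. It differed by 4.29 (SE 0.33, adjusted p = 1.27e-11). Slco1a4 was at 432, 440.3 and 586 CPM against 19.1 and 21.9 CPM (4.51, SE 0.36, adjusted p = 2.57e-11). Pooled over libraries, the ratio of the preparations was 19.3 (95% counting interval 14.9 to 25.4) for the glucose carrier and 23.2 (15.2 to 36.9) for Slco1a4. Neither gene had a library of one tissue near the range of the other.

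Slco1c1 was at 149.7, 195 and 461 CPM in the cortical surface arterial cells and had 0 UMIs among 1141634 in the bone-associated ones. This is at least 104-fold (adjusted p = 1.87e-10). Slc16a1 rested on few counts, at 33.3, 11.1 and 39.5 CPM from 12 UMIs in all, against 0 UMIs. The counting interval of its ratio starts at 7.02 (adjusted p of the edgeR test = 0.000938), and this call was lost without bone-associated library 2. For all 4 genes the lowest cortical surface library lay above the highest bone-associated library. Abcb1a, at 640.3, 418 and 494 CPM against 330.1 and 184 CPM, differed by 1.02 (SE 0.29, adjusted p = 0.0251), short of the limit, and passed it (1.44) only without bone-associated library 1. Abcg2 was at 158, 139 and 244 CPM against 183 and 182 CPM, with overlapping ranges, and Abcc4 at 141, 78.0 and 79.0 CPM against 40.9 and 56.8 CPM was not called (adjusted p = 0.186). Slc7a5, Slc38a5 and Mfsd2a were too low in arterial cells of either tissue to be tested.

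Without cortical surface libraries 3 and 4, which leaves libraries 1 and 2, the log2 differences were 4.18 for Slc2a1, 4.27 for Slco1a4, 8.91 for Slco1c1 and 5.81 for Slc16a1, and all 4 stayed called. The arterial cells of the 2 tissues fell into different clusters by the other genes: 72 of 73 cortical surface cells were in a cluster with Lypd1, Nos1 and Gkn3 among its top genes, and 136 of 141 bone-associated cells in a pair of clusters, topped by Gja5, F2rl1 and Cytl1 and by Ank3, Scube3 and Sox6. Both bone-associated clusters held Slc2a1 at about the same level, 50.4 and 51.6 CPM pooled over cells. Summed arterial markers were at 6137 to 8075 CPM at the cortical surface and 4282 to 4422 CPM in the bone-associated cells, all 10 detected in each library. Plvap was at 6.58 to 11.1 CPM and at 109 to 165 CPM, and pericyte markers were at 0 to 19.8 CPM (0 to 3 of 8 detected) and 45.2 to 95.5 CPM (4 to 6 of 8). Markers of vascular smooth muscle were at 13.2 to 184 CPM (1 to 7 of 8 detected) at the cortical surface and at 234 to 1219 CPM (7 to 8 of 8) in the bone-associated cells, with no overlap. Summed capillary markers overlapped, with 2977 to 4286 CPM against 2595 to 3282 CPM. Hemoglobin genes were at 111 to 4115 CPM and at 49.1 and 69.7 CPM. The part of these in the result was not tested, and tissue, digestion and library run cannot be told apart from the preparation.

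**Figure D3:**
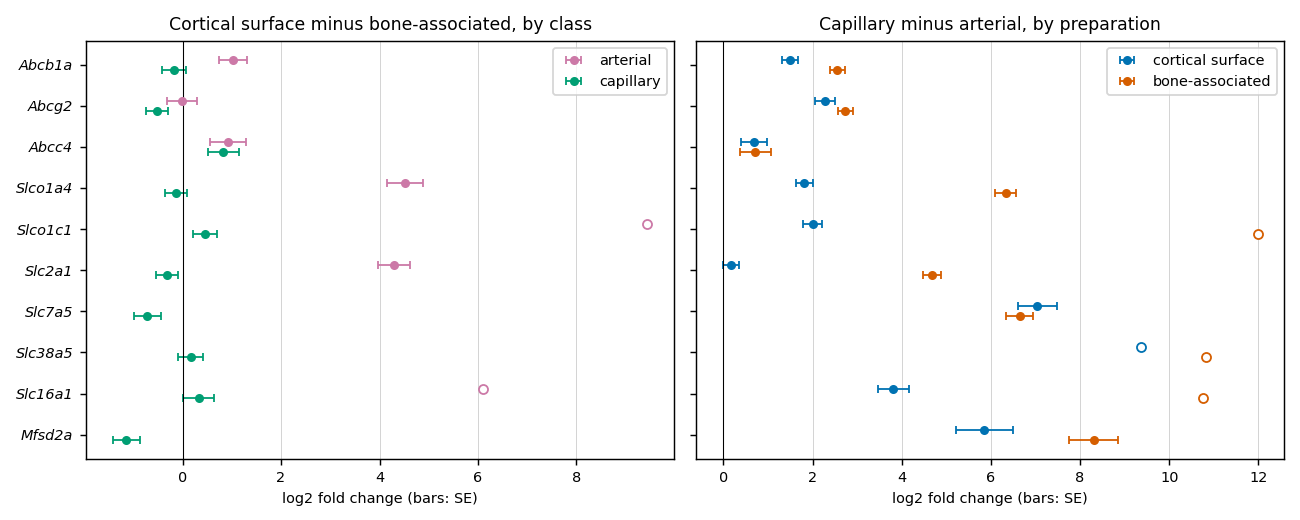
Left, log2 difference of each transporter, cortical surface minus bone-associated cells, for arterial (pink) and capillary (green) cells. Right, capillary minus arterial cells, for cortical surface (blue) and bone-associated (orange) libraries, with bars of 1 SE. Open points are fitted values of genes with 0 UMIs in one of the groups and have no bar. Slc2a1, Slco1a4 and Slco1c1 lie far to the right in arterial cells and near 0 in capillary cells.

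The difference itself was tested as an interaction of class and preparation. The capillary minus arterial contrast was smaller at the cortical surface for 4 of the 10 genes and larger for none, where it was smaller for 1.66% of 7662 genes and 2.53% were called in either direction. The difference was -4.57 for Slc2a1 (SE 0.31, adjusted p = 2.39e-19), -4.56 for Slco1a4 (SE 0.34, adjusted p = 3.67e-17) and, as fitted values that rest on 0 UMIs in bone-associated arterial cells, -8.81 for Slco1c1 (adjusted p = 7.61e-15) and -5.79 for Slc16a1 (adjusted p = 0.000696). The Slc16a1 call was lost with thinned cells (-3.10, adjusted p = 0.558) and with classes set by marker list (-0.65, adjusted p = 0.804). Abcb1a, at -1.12 (SE 0.28, adjusted p = 0.00728), stayed below the limit. Abcg2, Abcc4, Mfsd2a and Slc7a5 were not called (adjusted p = 0.585, 0.956, 0.75 and 0.934), and Slc38a5 allowed no estimate, being at 0 in all arterial libraries.

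No transporter was called between the preparations in capillary cells. Of the 10 genes, 0 were called by edgeR and 0 by DESeq2 (in edgeR Abcc4, Abcg2, Mfsd2a and Slc7a5 had an unadjusted p under 0.05), against 0.687% of 8154 tested genes. Slc2a1 lay at 1358, 1541, 1155 and 1093 CPM at the cortical surface and 1744 and 1455 CPM in the bone-associated libraries, and Slco1a4 at 1648, 1847, 1587 and 1905 CPM against 2187 and 1644 CPM. Slco1c1 was at 1038, 1001, 1359 and 1213 CPM against 1089 and 576 CPM. The ranges of the preparations overlapped for each of these 3 genes. Abcb1a (1304 to 1713 CPM against 2253 and 1096 CPM), Slc38a5 (310.3 to 354 CPM against 270.1 and 323 CPM), Slc16a1 (182 to 540 CPM against 354 and 309 CPM) and Slc7a5 (377 to 869 CPM against 1297 and 752 CPM) also overlapped. Abcc4, at 141 to 177 CPM against 93.0 and 91.4 CPM, and Abcg2, at 872 to 982 CPM against 1412 and 1251 CPM, did not overlap but were not called (adjusted p = 0.458 and 0.524). Mfsd2a came nearest to a call, with 129.7, 231, 173 and 109.8 CPM at the cortical surface below 403 and 330.3 CPM in the bone-associated libraries. Its difference of -1.14 (SE 0.28, adjusted p = 0.0382) was under the limit of 1.3, passed it (-1.47) without cortical surface library 2, and had an adjusted p of 0.142 without libraries 3 and 4.

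With 20 and 19 cells, the bone-associated capillary sums held 368189 UMIs in all, which limits the differences that could be detected. Their capillary markers summed to 23145 and 23941 CPM, within or near the 23403 to 26586 CPM of the cortical surface, and Plvap was at 7.03 and 22.1 CPM, against 2207 and 2219 CPM in the Plvap-positive cells of the same libraries. Pericyte markers were at 78.6 to 1540 CPM in cortical surface capillary cells and at 26.6 and 77.3 CPM in bone-associated ones. In the Vwf-high cells of the cortical surface, hemoglobin genes reached 4195 CPM. The count of called transporters in capillary cells was also 0 without cortical surface libraries 3 and 4. The bone-associated libraries also held 14 choroid plexus cells. A mesenchymal cluster of 55 cells there had Gjb6 and Gjb2 among its top genes, which the paper uses as leptomeningeal markers. Whether the bone-associated capillary cells came from the dura or from the brain surface was not tested.

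Arterial and Plvap-positive cells, both low in transporters in the bone-associated tissue, were called apart for a few carriers. In the joint fit 8 of the 10 genes could be tested and 2 were called, against 7.72% of 7787 genes. Slc7a5 was lower in arterial cells (-2.99, SE 0.38, adjusted p = 1.48e-05), at 5.46 and 10.3 CPM against 73.0 and 67.8 CPM in the bone-associated libraries. Slco1c1 was higher in arterial cells by 4.60 (SE 1.45, adjusted p = 0.0466), which rests on the cortical surface libraries, since it was at 0 UMIs in bone-associated arterial cells, and it was lost without cortical surface library 1 or 2 or bone-associated library 2. Within the bone-associated libraries 7 members could be tested and 3 were lower in arterial cells (4.61% of all tested genes were): Slco1a4 (-2.86, SE 0.26, adjusted p = 1.18e-09), Slc7a5 (-2.92, SE 0.38, adjusted p = 1.13e-06) and Slc16a1, with 0 UMIs in arterial cells against 25.1 and 16.2 CPM (adjusted p = 6.2e-05). Slc2a1 was not called, at 49.1 and 61.9 CPM in arterial and 57.4 and 59.5 CPM in Plvap-positive cells (0.01, SE 0.24, adjusted p = 0.993). The difference of Abcg2 was -1.11 (SE 0.22, adjusted p = 0.00164) in the joint fit, under the limit. Abcb1a, at 330.1 and 184 CPM in bone-associated arterial and 382 and 203 CPM in Plvap-positive cells, and Abcc4, at 40.9 and 56.8 CPM against 65.8 and 54.1 CPM, were not called (adjusted p = 0.748 and 0.844 in the joint fit). Mfsd2a and Slc38a5 were too low in both classes to be tested. The Plvap-positive class joined clusters of 141 cells (topped by Cyp26b1), 117 cells (Gpihbp1) and 104 cells (Selp). Pooled over all their cells, Slco1a4 lay at 273.8, 2.438 and 147.5 CPM and Slc7a5 at 117.6, 6.095 and 63.2 CPM. Bone-associated arterial cells held these carriers at 21.02 and 8.76 CPM, above the Gpihbp1 cluster. Slc16a1 lay at 37.6, 4.88 and 11.9 CPM, above the arterial 0 in each. The part of this mixture in the calls was not tested.

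Between capillary and Vwf-high Plvap-low cells, 3 of 10 transporters were higher in capillary cells and none was lower, against 1.71% of 7493 tested genes (3.54% in either direction). Mfsd2a was at 403, 330.3, 129.7, 231, 173 and 109.8 CPM in capillary cells of the 6 libraries (bone-associated first) and at 42.1, 9.36, 7.58, 12.03, 13.6 and 13.05 CPM in Vwf-high cells. It differed by 3.83 (SE 0.23, adjusted p = 2.94e-11). Slco1c1 was at 1089 and 576 CPM and at 1001 to 1359 CPM in capillary cells, and at 57.4 and 39.8 CPM and 225 to 387 CPM in Vwf-high cells (2.46, SE 0.20, adjusted p = 7.02e-09). Slc7a5 differed by 1.45 (SE 0.13, adjusted p = 4.42e-08). These 3 genes were higher in capillary cells in 6 of 6 libraries.

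Slc38a5 ran the other way. It was at 489.6 and 526 CPM in bone-associated and 689.7, 1049.8, 1018 and 775 CPM in cortical surface Vwf-high cells, above the capillary level of its own library in 6 of 6 libraries. Its difference of -1.27 (SE 0.13, adjusted p = 1.27e-07) fell just short of the limit in the joint fit and passed it at the cortical surface (-1.46, SE 0.12, adjusted p = 7.76e-13). Slc2a1 was also slightly higher in Vwf-high cells (-0.32, SE 0.10, adjusted p = 0.0353, under the limit). Slco1a4, at 1373 and 1114 CPM and at 1863 to 2017 CPM in Vwf-high cells, had a difference of 0.03 (SE 0.11) in the joint fit, -0.22 (SE 0.09) at the cortical surface and 0.49 (SE 0.16, adjusted p = 0.0279) in the bone-associated libraries, under the limit in each. Abcg2, Abcc4, Slc16a1 and Abcb1a were not called (adjusted p = 0.282, 0.276, 0.302 and 0.0865). Abcb1a was at 1507 and 875 CPM in bone-associated and 1220 to 1338 CPM in cortical surface Vwf-high cells, and Slc16a1 at 405 and 271 CPM and at 451 to 545 CPM, both overlapping the capillary ranges of their tissue. Between the preparations, 1 of 9 testable members was called in Vwf-high cells, against 1.95% of 8102 genes. This was Slco1c1, at 258, 225, 387 and 269 CPM at the cortical surface and 57.4 and 39.8 CPM in the bone-associated libraries (2.48, SE 0.32, adjusted p = 4.83e-06), and at 2.21 (adjusted p = 0.000352) without libraries 3 and 4. The adjusted p was 0.201 for Slc38a5, 0.271 for Slco1a4, 0.578 for Slc16a1, 0.775 for Slc7a5 and 0.820 or more for Abcb1a, Abcg2, Abcc4 and Slc2a1, and Mfsd2a was too low to be tested. In these cells 162 of 210 cortical surface and 11 of 60 bone-associated cells were in the same cluster, led by Vwf, Nr2f2, Pglyrp1 and Itm2a, and the others in a cluster with no leading capillary marker. Plvap was at 0 CPM in the cortical surface libraries of these cells and at 19.1 and 243 CPM in the bone-associated ones. The part of this split and of the Plvap difference in the result was not tested. Immediate-early and heat shock genes summed to 24051 and 25684 CPM in bone-associated and 903 to 12557 CPM in cortical surface Vwf-high cells, and 8 of 10 were lower at the cortical surface. Their part in the result was not tested either.

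Outside the endothelium the transporters were mostly low. At the cortical surface all 10 were higher in capillary cells than in pericytes, in mesenchymal cells and in choroid plexus cells. The background was 13.2% of genes higher (26.1% in either direction) against pericytes, 13.6% (28.4%) against mesenchymal cells and 24.7% (46.5%) against choroid plexus cells. The smallest of these 30 differences was that of Slco1c1 from choroid plexus, 3.43 (SE 0.18). Choroid plexus cells, the epithelium that makes cerebrospinal fluid, held this carrier at 68.4 and 80.1 CPM in cortical surface libraries 3 and 4 and at 509 CPM in the 13 such cells of bone-associated library 1, where it came next after capillary cells. The next smallest was that of Abcg2 from mesenchymal cells, 4.39 (SE 0.25).

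**Figure D4:**
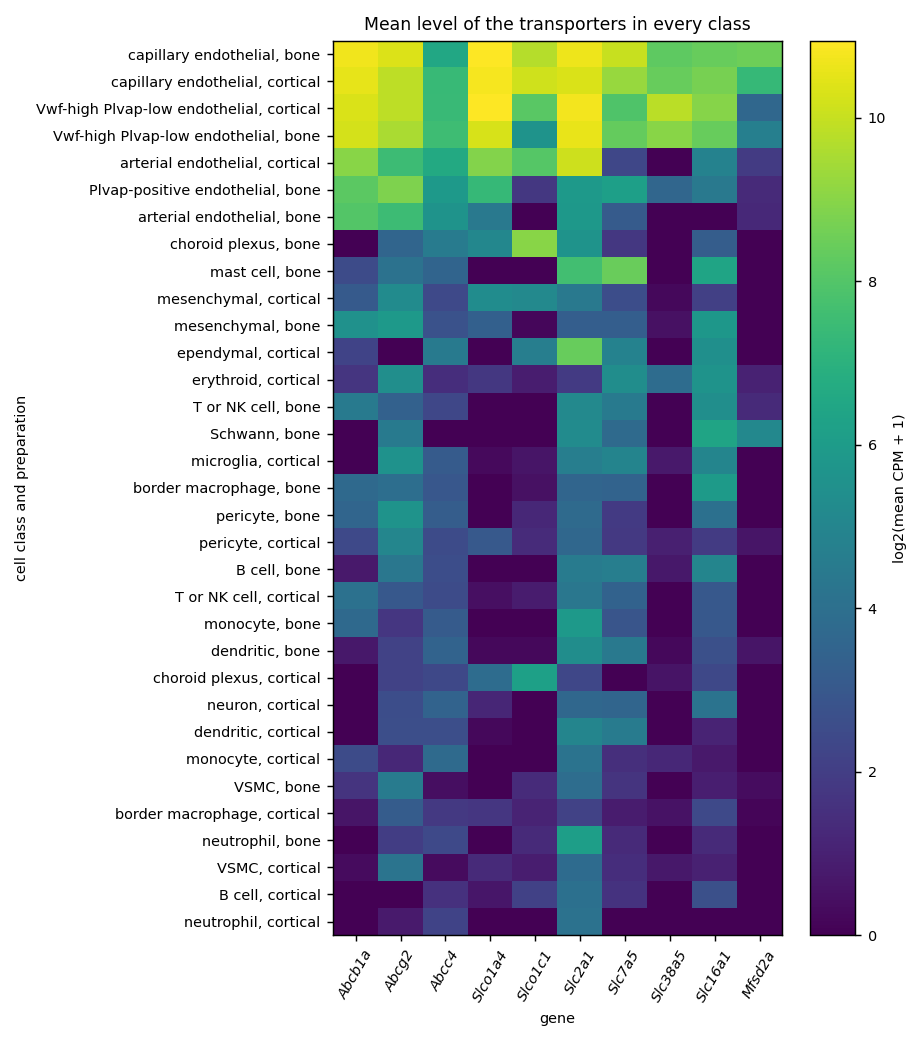
Mean level over libraries of each transporter in every class of each preparation with at least 10 cells in a library, as the colour of log2(mean CPM + 1), with rows ordered by the mean of the plotted values over the genes. The endothelial classes fill the top rows, and bright cells below them include Slco1c1 in choroid plexus, Slc2a1 and Slc7a5 in mast cells, and Slc2a1 in ependymal cells.

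Mast cells of the bone-associated tissue held Slc7a5 at 352 ± 76.0 CPM (SD, n = 2), next to the 331 ± 236 CPM of Vwf-high cells, with overlapping ranges. They also held Slc2a1 at 199 ± 38.0 CPM (n = 2), next after capillary and Vwf-high cells. Ependymal cells of the only library with at least 10 of them held Slc2a1 at 336 CPM. Slc38a5 was at 13.7 CPM in erythroid cells and at most 1.33 CPM in the means of the other non-endothelial classes, and Mfsd2a was at 33.8 CPM in Schwann cells and at most 1.45 CPM in the others. These values are descriptions with no test.

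In mesenchymal cells, 6 members could be tested between the preparations and 5 were called, against 15.3% of 9519 genes. Slco1c1 and Slco1a4 passed the detection filter through cortical surface cells alone, and Slc16a1 through bone-associated cells alone. The bone-associated class joined clusters of 136 cells (Comp, Chad and Matn4 among the top genes), 90 cells (Inmt, Apod and Aldh1a2) and 55 cells (Gjb6, Gjb2 and Slc26a7). The paper uses Matn4 as a dural marker and Gjb2 and Gjb6 as leptomeningeal markers. The part of this mixture in the result was not tested. Slco1c1 was at 39.5, 24.1, 51.3 and 21.3 CPM at the cortical surface and at 0 and 0.27 CPM in the bone-associated libraries, from 66 UMIs and 1 UMI. The ratio was 128 (95% counting interval 22.3 to 5149, adjusted p = 5.41e-08). Slco1a4 was at 37.9, 38.4, 70.6 and 10.6 CPM against 18.1 and 0.54 CPM (3.36, SE 0.70, adjusted p = 0.000441), and the call was lost without bone-associated library 2 (1.22). T or NK cells of the cortical surface held 0.767 CPM of Slco1c1 and 0.365 CPM of Slco1a4 in the mean, below every mesenchymal library of that tissue. Slc2a1, at 18.1, 29.4, 12.8 and 21.3 CPM against 9.04 and 8.11 CPM, was higher by 1.45 (SE 0.46, adjusted p = 0.0217). The call was lost without cortical surface library 2 (1.01) or bone-associated library 2 (1.42). T or NK cells held Slc2a1 at 14.1 to 27.6 CPM at the cortical surface, like the mesenchymal cells there, and at 40.6 and 28.5 CPM in the bone-associated libraries.

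The monocarboxylate carrier Slc16a1 was lower in cortical surface mesenchymal cells, at 0, 12.8, 0 and 0 CPM against 43.4 and 65.1 CPM. The difference was -2.98 (SE 0.51, adjusted p = 3.67e-05), and since all 17 cortical surface UMIs came from library 2, the fitted value without it, against 0 UMIs, was -8.85, which is no bound. The call was lost with DESeq2 (adjusted p = 0.393) and without doublet removal (-1.75, adjusted p = 0.084). Slc16a1 was also lower at the cortical surface in T or NK cells (3.68 to 11.1 CPM against 61.8 and 20.1 CPM). The same held in border macrophages (1.58 to 8.42 CPM against 101.3 and 23.2 CPM). In mesenchymal cells of the cortical surface Abcb1a was lower (-1.68, SE 0.49, adjusted p = 0.0131), at 4.94, 18.8, 6.42 and 0 CPM against 66.9 and 23.5 CPM. It was no longer called (-0.99) without bone-associated library 1. Abcg2 was not called (adjusted p = 0.437), and Abcc4, Slc7a5, Slc38a5 and Mfsd2a were too low to be tested. Pan-endothelial markers summed to 209 to 238 CPM in the mesenchymal cells of the cortical surface (3 to 8 of 10 detected) and to 66.7 and 336 CPM in the bone-associated ones (9 and 10 of 10). Pericyte-list genes were at 4583 to 8372 CPM (2 to 7 of 8 detected) against 279 and 313 CPM (7 and 8 of 8), astrocyte markers at 904 to 1374 CPM (2 to 3 of 8) against 40.5 and 48.8 CPM (4 and 2 of 8), choroid plexus markers at 449 to 607 CPM (4 to 5 of 8) against 98.1 and 175 CPM (8 and 5 of 8), and border macrophage markers at 42.1 to 552 CPM (2 to 9 of 9) against 3.62 and 6.76 CPM (2 and 6 of 9). Smooth muscle markers were at 31.9 to 246 CPM (2 to 8 of 8) against 540.2 and 671 CPM (8 and 7 of 8), and immediate-early and heat shock genes at 796 to 1406 CPM against 7130 and 7213 CPM, with 10 of 10 lower at the cortical surface. Their part in the result was not tested.

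Other genes of the barrier were described by lists. Of 21 other barrier transporters, 18 could be tested between capillary and Plvap-positive cells, and 10 were higher and 1 was lower in capillary cells, with a median log2 difference of 1.89 beside -0.03 over all genes and 3.75 over the 10 members. The glutamine carrier Slc38a3 (9.12, SE 0.68), the thiamine carrier Slc19a3 (6.74, SE 0.98) and the organic anion carrier Slc22a8 (5.68, SE 0.58) led, and the nucleoside carrier Slc29a1 was lower (-1.71, SE 0.51). Of 7 testable receptors of transcytosis, 3 were higher (Lrp8, Tfrc, which takes up transferrin, and Igf1r) and 2 lower (Insr and Scarb1). Of 16 genes of junctions and Wnt signalling, 8 were higher and 0 lower, among them the Wnt target Nkd1 (5.08, SE 0.50) and the claudin Cldn5 (3.93, SE 0.31). Of 10 immediate-early and heat shock genes, 3 were lower. Over all tested genes, 2.88% were higher and 7.67% were called in either direction.

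Between arterial cells of the preparations, genes of junctions and Wnt signalling differed beside Slc2a1, Slco1a4 and Slco1c1. Of 13 tested, 8 were higher at the cortical surface and 0 lower (median 2.53, all genes 0.01), led by the transcription factor Foxq1 (4.72, SE 0.39, adjusted p = 4.69e-11), Tnfrsf19 (4.34, SE 0.87, adjusted p = 0.000898) and the Wnt effector Lef1 (3.45, SE 0.44, adjusted p = 7.21e-07). Over all tested genes, 2.37% were higher and 4.51% were called in either direction. Of 12 other transporters the metal carrier Slc39a8 was higher and Slc29a1 lower, of 5 receptors Scarb1 was lower, and of 10 immediate-early and heat shock genes Atf3 was higher. In the interaction, 7 of 16 junction and Wnt genes had a smaller capillary minus arterial contrast at the cortical surface, against 1.66% of all tested genes. In capillary cells 0 genes of all 4 lists were called between preparations, where 0.687% of all tested genes were called. Between capillary and arterial cells 11 of 19 other transporters and 5 of 6 receptors were higher in capillary cells and 0 were lower, and 6 of 16 junction and Wnt genes were higher and 1, Reck, was lower. There 4.03% of all tested genes were higher and 9.67% were called in either direction. Between capillary and Vwf-high cells, the arginine carrier Slc7a1, the zinc carrier Slc39a10 and Lrp8 were higher, the vitamin carrier Slc5a6 was lower, and none of 16 junction and Wnt genes was called, against 3.54% of all tested genes in either direction.

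Over 33 class and preparation means the members were alike in pattern to different extents. The pairwise Pearson correlation of log2(CPM + 1) was lowest for Slco1c1 and Slc7a5 (r = 0.375) and highest for Abcb1a and Abcc4 (r = 0.844). These points share libraries and depth within a preparation, and the coefficients are descriptions. Of 14806 genes outside the members and lists, Bche (r = 0.96), Srarp (0.96), Slc35f2 (0.93), Tmem252 (0.92) and Gm609 (0.91) were most like the mean of the 10 standardized profiles. Tmem252 was also among the genes used to name Vwf-high cells. Gene by gene, the closest were Gm9917 for Abcb1a (0.94), Ephb4 for Abcg2 (0.90), Samd12 for Abcc4 (0.89), Dnah2os for Slco1a4 (0.93) and Tpd52l1 for Slco1c1 (0.94). For the others they were Tbx1 for Slc2a1 (0.84), Slc35f2 for both Slc7a5 (0.76) and Slc38a5 (0.93), Far2 for Slc16a1 (0.75) and Vstm2b for Mfsd2a (0.90).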

How the data were processed

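The authors deposited, for each of the 6 libraries, a matrix of raw UMI counts per gene and cell barcode. Reads had been aligned to mm10 and counted with Cell Ranger, version 3 in the submitters' processing notes and 6.1.2 in the matrix headers, and the values were not normalized. A minimum of 500 genes and a mitochondrial share of up to 10% left 8804 cells, of which 124 (1.41%) were removed as doublets by their simulated neighbours, and each preparation was clustered with leidenalg 0.10.2 on 2000 variable genes and 30 principal components. The 10 transporters and 3 of the gene lists were left out of clustering. Endothelial cells of both preparations were clustered again together, on 1500 genes. The rules that turn leading markers into class names were set after looking at the data, as were the Vwf-high class and its 2 comparisons, and 909 cells stayed unnamed. The members and lists were chosen with earlier results of these data known.

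UMIs were summed per library and class (at least 10 cells) and tested with the quasi-likelihood test of edgeR 4.0.16 (R 4.3.3, TMM normalization), over genes detected in more than 10% of the cells of either class. A gene near 0 in one group entered a test only through the other, which sets its direction. Library was a block between classes, whose cells come from the same pooled mice, and preparations were compared without a block. A call needed an adjusted p (Benjamini-Hochberg) under 0.05 and a log2 difference of at least 1.3 either way, the limits of the study. Adjustment was over all tested genes. P-values measure the spread between libraries as the test estimates it, with the spread of each gene drawn towards that of all tested genes. In fits with few libraries, such as those of the bone-associated libraries alone, a very small p-value rests largely on this shared estimate. It does not measure the spread of that gene alone over those libraries. Counting intervals (95%, exact) and the floor of 3 UMIs cover counting error only. The 10 members were the genes to be named in each comparison, and of a list up to 3 called genes with the largest difference in each direction, apart from an item that is not reported here. The tests were tried on simulated counts. DESeq2 1.42.0, other filters, thinning to 1500 UMIs and leaving out each library were alternatives, and leaving out hemoglobin genes or cortical surface libraries 3 and 4 were alternatives added after the data had been seen.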

Additional observations from a re-analysis of the deposited data

Results flagged for a closer look

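In cortical surface capillary cells, Abcc4 lay at 141.5 CPM in library 2 and at 172.8 to 177.3 CPM in the other 3 libraries, a gap wide for a group of 4. It was the only such gap among 20 groups of 4 libraries examined, where chance gives about 1 in 20.

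The capillary minus arterial difference of 4 transporters differed between the preparations in a direct test of the interaction, by -4.57 for Slc2a1, -4.56 for Slco1a4, -8.81 for Slco1c1 and -5.79 for Slc16a1 on the log2 scale (cortical surface minus bone-associated). The last pair of values rests on 0 UMIs in bone-associated arterial cells and their size is set by the fit. For Slc16a1 the call was lost with thinned cells and with classes set by marker list.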

How the results depend on the processing

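Of 227 alternative counts, 208 stayed within 1.5 times the count reported. Nearly all are counts of called members, and the rest count the members whose highest class mean was in capillary or Vwf-high cells. Grouping each endothelial cell by its highest marker list leaves no Vwf-high class, so its cells go to the other classes, in shares that were not counted. The Plvap list holds Vwf and Nr2f2. This grouping gave 3 called members in place of 9 between capillary and Plvap-positive cells, with Slc2a1 at -0.0979 and Slc38a5 at -0.76. The same grouping gave 3 in place of 0 between capillary cells of the preparations and 5 in place of 2 between arterial and Plvap-positive cells, where no gene filter also gave 5. That last comparison gave 1 with relative log expression size factors, with DESeq2, with at least 20 cells, with at least 1000 genes and with no doublet removal, and 1 to 2 without each library in turn. Leaving out each library gave 0 to 1 between capillary cells of the preparations (1 without cortical surface library 2) and 3 to 5 between mesenchymal cells. For mesenchymal cells DESeq2 gave 1, no doublet removal 3 and thinning to 1500 UMIs 0, and for Vwf-high cells of the preparations thinning gave 0 in place of 1. Abcc4 between capillary and arterial cells was at -0.39 with thinned cells. The causes of these changes were not tested.

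Of the values of called members, 1151 alternatives kept direction and call, 37 lost the call and 2 reversed, and of members not called, 19 gained one. Slc2a1 between capillary and arterial cells, not called in the joint fit, gained a call in 8 alternatives (2.15 without cortical surface library 2 and 2.28 without library 4), and Slc38a5 between capillary and Vwf-high cells in 8. The replicate number was shared by the preparations only as a number (correlation of deviations 0.02 to 0.16). With it as a replicate block, 0 capillary, 3 arterial, 4 mesenchymal and 1 Vwf-high member were called between preparations, and Slc16a1 was lost in arterial cells. With no replicate block for the library, 8 members were called between capillary and Plvap-positive cells, 8 between capillary and arterial, 3 between arterial and Plvap-positive, 3 between capillary and Vwf-high, 4 in the interaction and 10 against each of pericytes, mesenchymal and choroid plexus cells. Counts over all genes ranged from 177 to 838 (594 in the fit reported) for capillary against Plvap-positive cells, 333 to 883 (741) for capillary against arterial, 263 to 789 (601) for arterial against Plvap-positive, 3 to 378 (56) for capillary and 106 to 376 (344) for arterial cells of the preparations, 28 to 199 (194) for the interaction, 623 to 1813 (1457) for mesenchymal, 113 to 386 (265) for capillary against Vwf-high and 47 to 220 (158) for Vwf-high cells of the preparations, and from 1067 to 2649 (1988), 1121 to 2776 (2386) and 1556 to 4371 (3732) against pericytes, mesenchymal and choroid plexus cells. Without bone-associated library 1 the counts were 306 for capillary against Plvap-positive cells, 387 for arterial against Plvap-positive, 11 for capillary cells of the preparations, 122 for the interaction and 97 for Vwf-high cells, and without bone-associated library 2 they were 383, 400 and 37 for the first 3 of these and 227 for arterial cells.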
